A study of Mus musculus with 3 samples.

Results

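The replication-dependent histone genes were described in cytosolic RNA of mouse macrophages. They were taken as every gene of the GENCODE M21 annotation with a protein-coding transcript and a symbol that begins with Hist1h, Hist2h, Hist3h or Hist4h, and 67 of 55536 genes met this rule. The set holds 6 H1, 18 H2A, 18 H2B, 12 H3 and 13 H4 genes, and the rule uses no measured levels. The data are 3 libraries of total RNA, depleted of ribosomal RNA. They came from the cytosol of macrophages grown from bone marrow of C57BL/6J mice, whose age and sex the labels do not give, at 0 minutes of exposure to 100 ng/ml lipid A, and are numbered as biological replicates 1, 2 and 3. Lipid A is the membrane anchor of bacterial lipopolysaccharide and a ligand of TLR4. All 3 share a donor label, and the labels do not say whether they are separate cultures, so each SD measures only the spread between these libraries, which may be technical. With 1 group there was no treatment to compare, and no test between groups was made.

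Histones are the proteins around which DNA is wound. H2A, H2B, H3 and H4 form the core of the nucleosome and H1 binds the DNA that links nucleosomes. Genes of the replication-dependent kind supply histones for newly copied DNA, so their mRNAs are made mainly in S phase. Most of these mRNAs carry no poly(A) tail. They end instead just after a short hairpin, the histone stem-loop, which is bound by the stem-loop binding protein and governs processing, translation and decay. Some of the genes can also give longer, polyadenylated transcripts, which have been described in cells that are not dividing. Replacement variants such as H3.3 are encoded elsewhere and are made throughout the cell cycle.

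The stem-loop is shown because it defines how these transcripts end. A perfect hairpin of 6 base pairs with a loop of 4 bases, in 6 spellings, was found in the annotated transcript of 44 of the 67 genes (65.7%). The same spellings occurred in 2 of 21834 other protein-coding genes (0.00916%), namely H2bfm, which encodes an H2B-like histone, and Trim17, whose transcript overlaps Hist3h2a. The spellings were taken from the histone genes, and other genes were searched for these letters only, not for any perfect hairpin. The shares are therefore not like measures. One gene is printed for each spelling, followed by Hist1h1c and Hist3h2a, to which the results return. Sequences were read from the GENCODE M21 transcripts, 5′ to 3′, as DNA letters on the mm10 build, and the capitals mark the hairpin.
Hist2h2aa2 (chr3:96239779-96239804, minus strand): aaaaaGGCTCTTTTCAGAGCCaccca
Hist1h4h (chr13:23531453-23531478, plus strand): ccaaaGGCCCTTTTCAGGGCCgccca
Hist1h2bb (chr13:23747198-23747223, plus strand): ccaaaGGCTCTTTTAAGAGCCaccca
Hist1h4i (chr13:22040961-22040986, minus strand): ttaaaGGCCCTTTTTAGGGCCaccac
Hist1h4b (chr13:23757361-23757386, plus strand): caaaaGGTCCTTTTCAGGACCactca
Hist2h2ac (chr3:96220413-96220438, minus strand): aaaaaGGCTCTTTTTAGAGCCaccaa
Hist1h1c (chr13:23739507-23739532, plus strand): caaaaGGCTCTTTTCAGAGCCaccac
Hist3h2a (chr11:58955167-58955192, plus strand): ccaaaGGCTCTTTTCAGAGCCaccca
The spelling of Hist2h2aa2 was the commonest, with 26 genes of the H1, H2A, H2B and H3 classes. The spelling of Hist1h4h was held by 7 genes, that of Hist1h2bb by 6, those of Hist1h4i and Hist1h4b by 2 each and that of Hist2h2ac by 1. All 11 H4 genes with a hairpin had a spelling found in no other class. The hairpin began between 21 and 58 bases after the stop codon.

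Annotated transcripts differed in where they stopped relative to this hairpin. In 22 genes the annotation ended within 100 bases after it, and in another 22 it ran on for 151 bases or more, up to 4884 bases in Hist1h1d. In 15 genes no 3′ untranslated region was annotated, and in 8 there was one without a perfect hairpin. The limit of 100 bases was set after the lengths were seen, and lies in a gap between 74 and 151. The letters AATAAA, the usual polyadenylation signal, stood in the last 60 bases of 9 of the 22 transcripts that ran past the hairpin. They stood in 2 of the 8 with an untranslated region but no hairpin, and in none of the other 37. Over all protein-coding transcripts of a gene, 20.9% of the histone genes and 66.5% of other protein-coding genes had these letters at an end.

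The histone genes took a small share of the cytosolic RNA. Expected counts (reads assigned to a gene by an estimate, so not always whole) came to 15189, 31168 and 30785 for the set in replicates 1, 2 and 3. Out of 26318761, 41897257 and 56290298 counts over all genes, these were 0.0577% (95% Wilson interval 0.0568 to 0.0586), 0.0744% (0.0736 to 0.0752) and 0.0547% (0.0541 to 0.0553). The mean share was 0.0623% ± 0.0106 (SD, n = 3), and replicate 2 stood above both others. In TPM, a level corrected for transcript length as well as library size, the summed level of the set was 640, 823 and 579. Genes with a protein-coding transcript together held 26.3, 22.0 and 21.7% of all TPM in replicates 1, 2 and 3. A fall in TPM from replicate 1 is therefore not by itself a fall in CPM. Intervals cover counting error only.

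Most of the genes were assigned reads. Many of them share most of their sequence, so reads assigned to a gene may come from another, and presence gene by gene is an estimate. A level of 1 TPM or more was reached in every library by 57 of the 67 genes (85.1%), against 41.2% of the 21901 genes with a protein-coding transcript. All 12 H3 genes met it, as did 5 of 6 H1, 14 of 18 H2A, 14 of 18 H2B and 12 of 13 H4 genes. The median level over the 67 genes was 6.42 TPM, against 0.15 TPM over the 21901. Among detected genes the medians lay closer, at 8.04 TPM for the histone genes and 7.19 TPM for all 9017 detected genes with a protein-coding transcript.

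**Figure D1:**
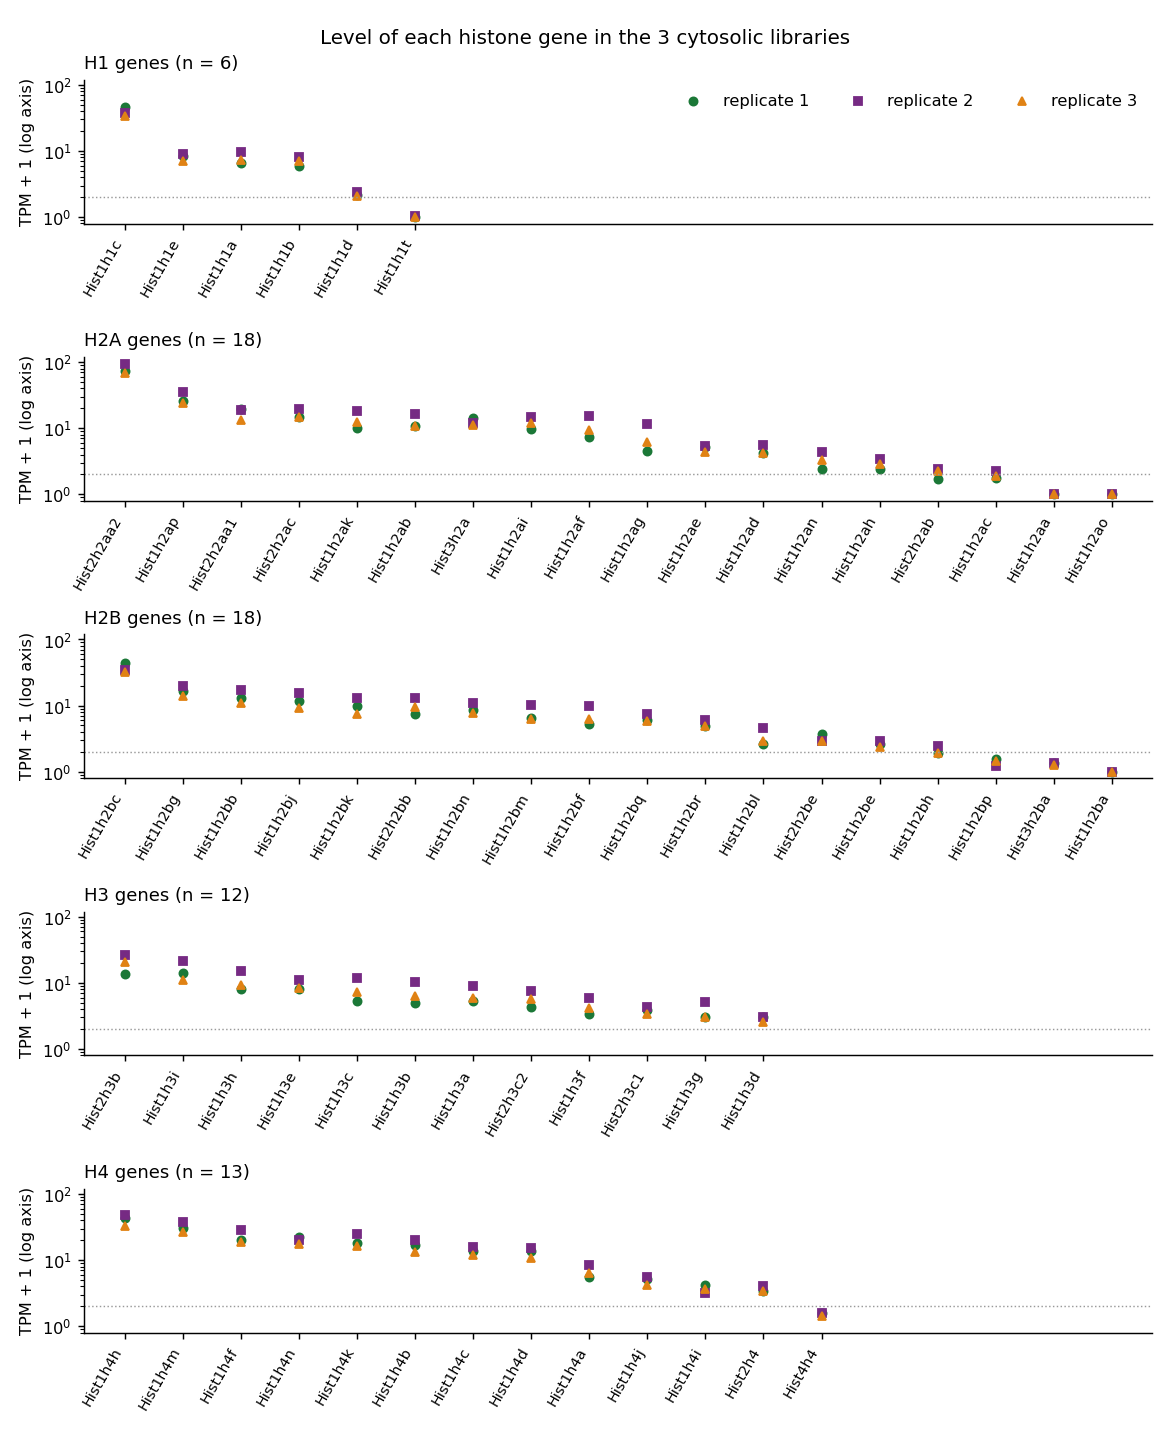
Level of each of the 67 histone genes in replicates 1, 2 and 3, as TPM + 1 on a log axis, with 1 panel per histone class and genes ordered by their mean. The dotted line marks 1 TPM. Hist2h2aa2 stands highest, at 68.4 to 94.2 TPM, and Hist1h1t, Hist1h2aa, Hist1h2ao and Hist1h2ba lie at or near 0.

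Classes were unequal, and their order depended on the scale. In CPM, counts scaled to library size, H2A genes summed to 138, 193 and 139 in replicates 1, 2 and 3, H1 genes to 155, 162 and 134, and H2B genes to 131, 149 and 114. H4 genes summed to 102, 138 and 95.3 CPM and H3 genes to 50.8, 101.0 and 64.6 CPM, the lowest of the 5 classes in every library. In TPM, H2A (215 ± 43.8, n = 3) and H4 (188 ± 33.2) led, followed by H2B (132 ± 23.0), H3 (86.6 ± 28.6) and H1 (59.1 ± 6.18). The H1 genes held 24.4% ± 2.53 of the set's counts but 8.82% ± 1.29 of its TPM. H1 coding sequences have 627 to 669 bases, against 309 for H4, and the transcripts of Hist1h1c, Hist1h1e and Hist1h1d run 840, 1153 and 4884 bases past the hairpin. TPM rests on lengths as annotated, which hold no 3′ untranslated region for 15 of the genes.

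**Figure D2:**
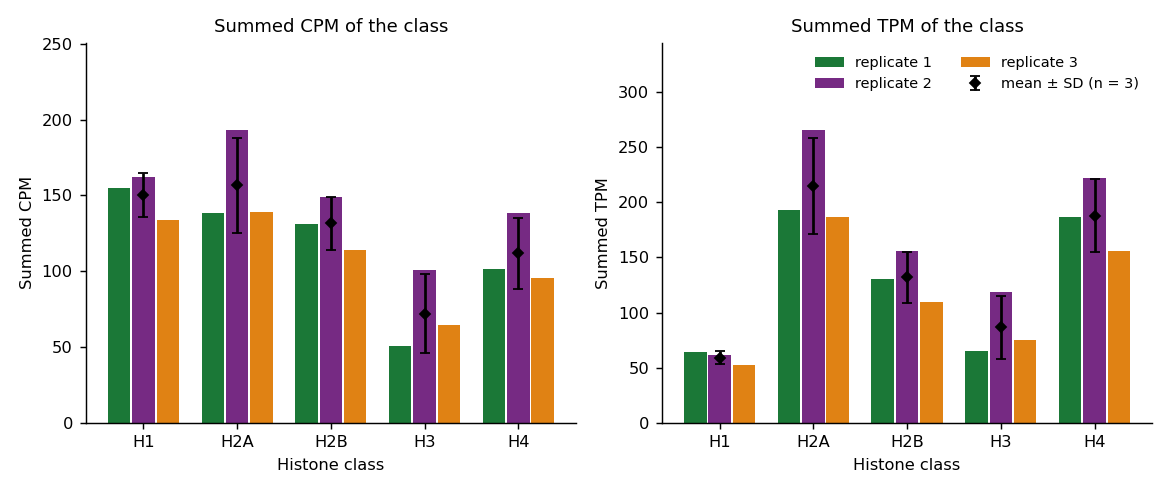
Summed CPM (left) and summed TPM (right) of the H1, H2A, H2B, H3 and H4 genes in replicates 1, 2 and 3, as bars from 0, with diamonds and error bars for the mean ± SD (n = 3). H1 genes sum to 134 to 162 CPM but 52.2 to 64.0 TPM, and H3 genes show the largest ratio of replicate 2 to the mean of the other libraries, 1.75 in CPM and 1.69 in TPM.

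Among the linker histones, Hist1h1c (H1.2, chromosome 13, 23738808 to 23740367) led with 45.1, 36.1 and 32.8 TPM in replicates 1, 2 and 3. It also held the most counts of any histone gene, at 108, 97.8 and 86.0 CPM, and was highest in replicate 1. Hist1h1e (H1.4) followed with 7.36, 8.06 and 6.12 TPM. Hist1h1a (H1.1) reached 5.47, 8.60 and 6.28 TPM, and Hist1h1b (H1.5) 4.83, 7.11 and 5.95 TPM. Hist1h1d (H1.3) ranked 8 of 67 by counts but 57 by TPM, at 1.18, 1.36 and 1.06 TPM, since TPM divides by length and its annotated transcript has 7425 bases. The testis-restricted Hist1h1t had 0, 2 and 1 counts.

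Among H2A genes, Hist2h2aa2 (chromosome 3, 96239749 to 96240276) had the highest level of the whole set, 72.3, 94.2 and 68.4 TPM. As estimated, its range lay clear of that of every other histone gene. All 31-base words (runs of 31 letters) of its transcript also occur in Hist2h2aa1, so its level depends on how reads were split between them. Hist1h2ap came next with 25.0, 34.8 and 23.0 TPM, then Hist2h2aa1 with 18.7, 17.9 and 12.4 TPM and Hist2h2ac with 13.8, 18.7 and 13.7 TPM. Hist1h2ak and Hist1h2ab had 9.23 to 17.2 and 9.90 to 15.3 TPM, each highest in replicate 2. Hist3h2a (chromosome 11, 58954685 to 58956830) had 13.5, 11.1 and 10.1 TPM and was highest in replicate 1. Hist1h2aa, restricted to testis, had 0 counts in each library, which allows up to 3 counts, or 0.114, 0.0716 and 0.0533 CPM.

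Hist1h2bc (chromosome 13, 23684199 to 23692908) led the H2B genes with 43.5, 33.3 and 31.1 TPM and was the second of the set by counts. It was highest in replicate 1. Hist1h2bg had 15.7, 18.5 and 13.0 TPM and Hist1h2bb 12.0, 16.1 and 9.79 TPM, both highest in replicate 2. The testis-restricted Hist1h2ba had 0 counts in each library. Hist1h2bp had 7.60, 4.89 and 14.2 counts, and its second coding transcript took 30.2, 26.7 and 14.9% of its TPM. In Hist1h2bq, at 4.92 to 6.52 TPM, the second coding transcript took 23.0, 21.2 and 19.6%.

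H3 genes ran from 1.87 TPM for Hist1h3d to 19.1 TPM for Hist2h3b, as means of 3 libraries. Hist2h3b (chromosome 3, 96268654 to 96269141) had 12.5, 25.3 and 19.4 TPM, and Hist1h3i 13.1, 20.2 and 10.03 TPM. Both were highest in replicate 2, as were all other H3 genes. H4 genes ran from 0.54 TPM for Hist4h4, the lone gene of its cluster on chromosome 6, to 40.8 TPM for Hist1h4h. Hist1h4h (chromosome 13, 23531050 to 23531519) had 42.5, 47.4 and 32.5 TPM and Hist1h4m 30.0, 36.8 and 25.8 TPM. Hist1h4f had 19.2, 28.0 and 18.03 TPM, Hist1h4n 21.7, 19.4 and 16.8 TPM, and Hist1h4k 17.1, 23.9 and 15.4 TPM. Hist1h4b, Hist1h4c and Hist1h4d had means of 15.8, 12.8 and 12.4 TPM.

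Ranks below the first place were not firm, and the first place rests on the split of reads between Hist2h2aa2 and Hist2h2aa1. Of the 19 pairs of neighbours among the 20 highest genes by TPM, 18 overlapped in their ranges, and 4 kept their order in all 3 libraries. By location, the 54 Hist1 genes on chromosome 13 (21715763 to 23934851) held 75.8% ± 0.894 of the set's TPM. The 10 Hist2 genes on chromosome 3 (96219865 to 96270132) held 22.3% ± 1.05. The 2 Hist3 genes on chromosome 11 held 1.78% ± 0.384.

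The 3 libraries differed more for histone genes than for most genes, and almost always in the same direction. After TMM scaling (which evens out library composition) and a filter on low counts, 61 of the histone genes remained among 12413 genes. Replicate 2 had the highest log2 CPM for 56 of the 61 (91.8%), against 30.9% of all genes past the filter. The other 5 were highest in replicate 1, and none was highest in replicate 3. Many of these genes share sequence and so reads, and the 61 are not separate observations. Among the 22 with at least 50% of 31-base words found in no other gene, 17 were highest in replicate 2 (77.3%). All 5 that were highest in replicate 1 belong to these 22. On TPM, replicate 2 was highest for 54 of 61, against 9.93% of all genes. Hist2h2aa1 and Hist1h4n were highest in replicate 1 on that scale. Replicate 2 lay above the mean of the other two by a median of 0.68 log2 units for the histone genes and 0.00 for all genes. Replicate 3 lay above replicate 1 for 41 of the 61, against 51.0% of all genes, with a median difference of 0.22 for the histone genes and 0.01 for all genes. The median SD between libraries was 0.42 log2 units for the histone genes and 0.12 for all genes. Without replicate 2 these medians were 0.17 and 0.11, so replicate 2 carried most of the wider spread. Replicate 2 was neither the shallowest nor the deepest library.

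H3 genes showed the largest median difference, 0.95 log2 units over 12 genes, and H1 genes the smallest, 0.41 over 5. The median was 0.69 for H2A, 0.72 for H2B and 0.51 for H4 genes. The widest spread of a single gene was that of Hist1h2ag, with 43.1, 240 and 153 counts, or 1.64, 5.73 and 2.72 CPM. The H3 genes Hist1h3c (3.14, 9.05 and 5.10 CPM) and Hist1h3b (2.78, 7.73 and 4.21 CPM) followed, with SDs of 0.78 and 0.76 log2 units. The H2A genes Hist1h2an (0.409, 1.22 and 0.817 CPM) and Hist1h2af (1.96, 5.33 and 3.02 CPM) completed the 5 widest. All 5 were lowest in replicate 1 and highest in replicate 2.

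The difference was also set against the annotated 3′ end, which the choice of genes did not use. Of the genes whose annotation ends near the hairpin, 20 of 20 past the filter were highest in replicate 2, as were 13 of 13 with no annotated 3′ untranslated region. Of those that run past the hairpin 17 of 20 were, and of those with an untranslated region but no hairpin 6 of 8. The median difference of replicate 2 from the other two was 0.75, 0.77, 0.48 and 0.70 log2 units in the same order. Ranges overlapped widely. They ran from 0.19 to 1.44 for transcripts that end near the hairpin and from -0.24 to 0.96 for those that run past it. Over all genes past the filter, 30.9% were highest in replicate 2. Transcripts that run past the hairpin mostly share less sequence with other genes than those that end near it or lack an untranslated region. The kind of end and shared sequence were not tested apart. Some annotated untranslated regions, of 1 base in Hist1h2af and 2 in Hist1h2ah, are too short for the 16-base hairpin.

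The 5 genes that were highest in replicate 1 were Hist1h1c, Hist1h2bc, Hist2h2be, Hist3h2a and Hist1h4i. They were singled out after their values were seen. Hist1h1c, Hist3h2a and Hist1h4i have annotated transcripts that run 840, 1643 and 330 bases past the hairpin. Those of Hist1h2bc and Hist2h2be have 3′ untranslated regions of 742 and 2192 bases with no perfect hairpin. Hist2h2be, an H2B gene, had 299, 386 and 495 counts, not scaled for library size, or 2.65, 1.90 and 1.87 TPM. Hist1h4i had 74.3, 95.3 and 147 counts, or 3.17, 2.20 and 2.62 TPM. Over the 5 genes, replicate 2 minus the mean of the other libraries ran from -0.24 to 0.06 log2 units (median -0.01). Together the 5 genes gave 241, 216 and 193 CPM in replicates 1, 2 and 3, and the 56 other genes 336, 528 and 354 CPM. The 5 held 41.7, 29.0 and 35.2% of the set's counts. Both groups were formed by the library with the highest log2 CPM, so this contrast follows from that choice. Whether the reads of either group came from short or long transcripts was not tested, since the tables give 1 estimate per annotated transcript and not the coverage along it.

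**Figure D3:**
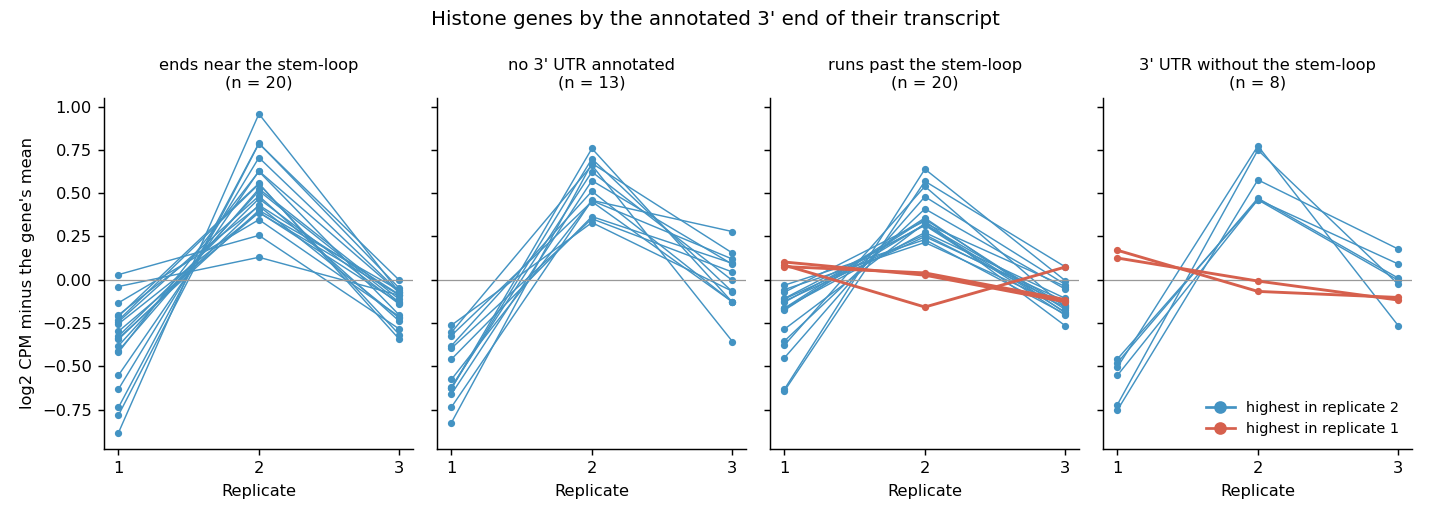
log2 CPM of each of the 61 histone genes past the low-count filter in replicates 1, 2 and 3, minus the gene's own mean, with 1 panel per kind of annotated 3′ end. Each line is a gene; 56 peak in replicate 2, and the 5 that are highest in replicate 1 lie among transcripts that run past the stem-loop or have a 3′ untranslated region without it.

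Other genes of the cell cycle differed in replicate 2 to unequal extents. The gene lists compared here were chosen with earlier results of these data known. All 10 listed mitosis genes were highest in replicate 2, by 0.34 to 0.90 log2 units (median 0.45). Birc5, which encodes survivin, had 1.75, 3.12 and 1.82 TPM, the kinase gene Plk1 0.71, 1.28 and 0.99 TPM, and Mki67, which encodes the proliferation antigen Ki-67, 3.10, 4.39 and 3.66 TPM. In log2 CPM, 11 of 23 S phase and replication genes were highest in replicate 2 and 12 in replicate 3, with a median difference of 0.14. Pcna, the sliding clamp of DNA polymerase, led this list with 63.9, 59.6 and 63.2 TPM. Its order differed in log2 CPM, at 7.15, 7.30 and 7.36. Ccna2, which encodes cyclin A2, had 1.17, 1.92 and 1.77 TPM. Their part in the histone difference was not tested. In bulk RNA, fewer cells of a type and less RNA per cell cannot be told apart.

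**Figure D4:**
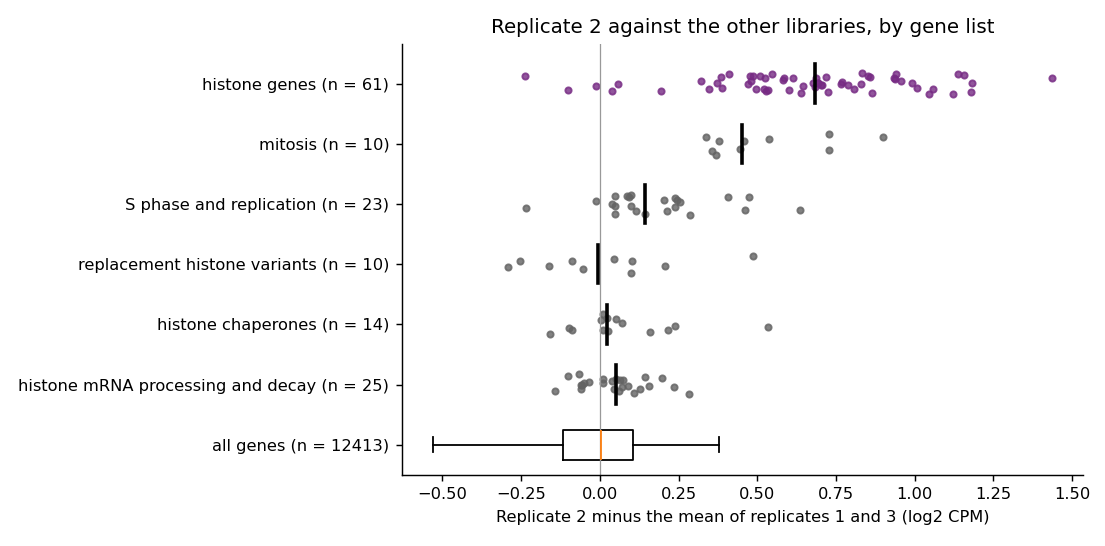
Replicate 2 minus the mean of replicates 1 and 3, in log2 CPM, for the histone genes at the top, 5 other gene lists and all 12413 genes past the filter. Points are genes, thick bars are medians, and the box for all genes spans the interquartile range with whiskers at the 5th and 95th percentiles; the medians are 0.68 for histone genes and 0.45 for mitosis genes.

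Replacement histone genes, whose mRNAs are mostly polyadenylated, gave the other source of histone mRNA. The 12 replication-dependent H3 genes together had 65.2, 119 and 75.6 TPM. The H3.3 gene H3f3a alone had 234, 176 and 148 TPM, and H3f3b, which encodes the same protein, had 132, 105 and 125 TPM. In log2 CPM, H3f3a had 8.35, 8.19 and 8.13 and H3f3b had 8.65, 8.56 and 8.79. H2afz (H2A.Z) had 42.6 ± 4.63 TPM, H2afy (macroH2A1) 27.2 ± 2.97, the centromeric H3 gene Cenpa 23.5 ± 3.12 and H1f0 (H1.0) 14.7 ± 2.68 (n = 3 each). Of the 11 genes of this list 9 reached 1 TPM in every library. Of the 10 past the filter 3 were highest in replicate 1, 3 in replicate 2 and 4 in replicate 3, with a median difference of -0.01 for replicate 2. H2afx, which encodes H2A.X, showed the largest, 0.49, with 4.51, 5.89 and 4.70 TPM. Its mRNA is known in both a stem-loop and a polyadenylated form.

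The machinery that processes histone mRNA was present, with little difference between replicate 2 and the other libraries. Of 25 listed genes 23 reached 1 TPM in every library, with a median of 8.64 TPM. Snrpb and Snrpe, for proteins of the Sm ring shared by spliceosomal and U7 particles, led with 27.1 ± 5.04 and 26.02 ± 1.90 TPM, followed by the uridylyltransferase gene Tut7 with 23.0 ± 2.71 TPM. Slbp, for the stem-loop binding protein, had 8.39, 6.48 and 6.66 TPM. Npat, for the activator of histone transcription, had 2.66, 2.09 and 2.12 TPM, and Eri1, for the exonuclease that trims the stem-loop end, 4.30, 3.68 and 3.81 TPM. Lsm11, for a U7 particle protein, and Zfp473, for a zinc finger protein known in human cells to bind that particle, stayed below 1 TPM, at 0.60 ± 0.05 and 0.13 ± 0.04. Replicate 2 differed from the other libraries by a median of 0.05 log2 units (range -0.14 to 0.28), and Slbp by -0.07. Of the 25 genes 7 were highest in replicate 1, 12 in replicate 2 and 6 in replicate 3. Over all genes past the filter, 30.9% were highest in replicate 2.

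Histone chaperones, which carry histones to DNA, likewise showed a median difference of 0.02 over 14 genes. Nap1l1 led with 28.8 ± 3.00 TPM and Atrx followed with 18.4 ± 0.736. Nasp, the H3 and H4 chaperone, had 6.15, 6.00 and 5.30 TPM, or 4.32, 4.54 and 4.31 in log2 CPM. The exception in size was Asf1b at 0.53 log2 units, with 1.12, 1.53 and 1.38 TPM.

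Many of the genes share most of their sequence, which limits how well reads can be assigned to one of them. As annotated, all 13 H4 genes encode 1 protein, and the 12 H3 genes encode 3. Of these 3, 1 comes from Hist2h3c1 alone, whose annotated coding sequence has 543 bases, against 408 in every other H3 gene. The 18 H2A genes encode 9 proteins, of which 1 is shared by 9 genes, the 18 H2B genes encode 11 and the 6 H1 genes 6. Coding sequences were identical letter for letter in 4 pairs: Hist2h2aa1 and Hist2h2aa2, Hist1h2ao and Hist1h2ap, Hist1h2bq and Hist1h2br, and Hist1h4m and Hist1h4n. In 41 of the 67 genes, fewer than 50% of the 31-base words of the transcript occurred in no other gene. A sum of counts over such a pair does not depend on how reads were split within it. Hist2h2aa1 and Hist2h2aa2 together had 1330, 3051 and 2857 counts, and Hist1h4m and Hist1h4n 452, 940 and 934. Summed TPM was 91.0, 112 and 80.8 for the first pair and 51.7, 56.1 and 42.6 for the other. It still depends in part on the split, since the annotated lengths differ (586 and 528 bases, and 402 and 430 bases). Hist1h2ao was listed at 0 counts in every library while its twin Hist1h2ap had 297, 786 and 676.

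Both kinds of deposited table estimate the same libraries, and they disagreed most where sequence is shared. Among the 61 genes with a mean of 10 or more counts, 52 differed by less than 1.5 times between the kallisto-format and the gene-table counts. The kallisto-format count was at least 1.5 times higher for 8 genes and lower by that factor for 1. The gene with the lower count was Hist2h3c1, an H3 gene, with 78.3, 175 and 38.5 counts in the kallisto-format tables against 219, 456 and 421 in the gene tables. Hist1h2ah had 50.9, 135 and 110 against 11.8, 38.8 and 39.4 counts, and Hist1h4k 175, 406 and 380 against 74.3, 211 and 177. In genes with at least 50% of words of their own, the ratio of the estimates stayed between 0.998 and 1.28. Below 10% it ran from 0.266 to 3.29. No word of Hist2h2aa1, Hist2h2aa2, Hist2h2bb, Hist2h3b, Hist2h3c1, Hist1h2bq or Hist1h2br was unique. Noncoding annotations overlie part of the Hist2 cluster, among them Gm20634 with 513, 877 and 1173 counts. The 5 genes with the largest fold between the gene-table and kallisto-format TPM were Hist2h3c1, Hist1h2an, Hist1h2bq, Hist2h2aa2 and Hist1h2ad. TPM in the gene tables was a median of 2.31 times that in the kallisto-format tables for these genes and 2.25 times for all 9017 detected protein-coding genes, so most of that gap was shared by all.

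**Figure D5:**
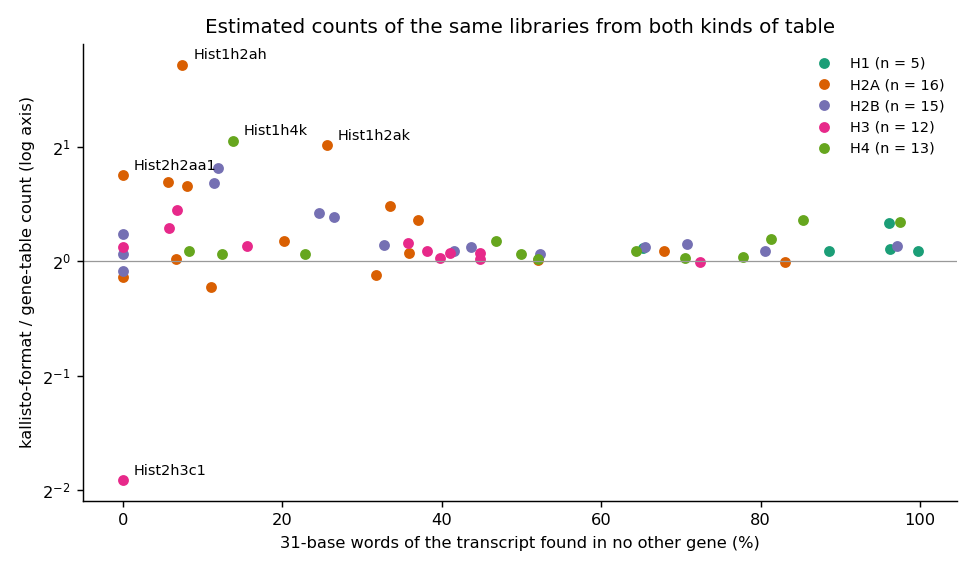
Ratio of the kallisto-format to the gene-table count (log axis) against the percent of the transcript's 31-base words found in no other gene, for the 61 histone genes with a mean of 10 or more counts, coloured by class. Points with at least 50% of words of their own lie between 0.998 and 1.28, and those below 10% spread from 0.266 to 3.29.

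Promoters were examined because replication-dependent histone genes share known elements. A RefSeq start within 50 bases of the GENCODE start was found for 52 of the 67 genes, and windows of 250 bases before to 50 after the start were searched on both strands (GRCm38.p6). The octamer ATGCAAAT, which binds OCT1, stood in 6 of 14 H2A and 5 of 14 H2B promoters and in none of the other classes. It stood in 1.74% of 32851 promoters of all genes. The letters TATAAA stood in 59.6% of the histone promoters and 13.6% of all, and CCAAT in 84.6% and 37.4%. CCAAT was found in every H1, H2A, H2B and H3 promoter matched but in 3 of 11 H4 promoters. The H1 box AAACACA stood in 4 of 5 H1, 2 of 14 H2A and 2 of 14 H2B promoters, in none of the H3 and H4 promoters matched, and in 7.18% of all. Some H2A and H2B genes face away from each other across a shared window, so these counts are not independent.

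The 200 bases before the start are printed for Hist1h2bg, which was highest in replicate 2, and Hist3h2a, which was highest in replicate 1. Capitals mark the octamer, TATAAA and CCAAT on either strand. Sequences are from RefSeq on GRCm38.p6.
Hist1h2bg (chr13:23571200-23571399, plus strand): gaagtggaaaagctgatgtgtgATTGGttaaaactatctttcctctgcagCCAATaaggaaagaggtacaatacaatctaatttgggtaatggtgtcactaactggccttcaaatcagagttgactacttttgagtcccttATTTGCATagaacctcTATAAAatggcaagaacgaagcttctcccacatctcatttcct
Hist3h2a (chr11:58954485-58954684, plus strand): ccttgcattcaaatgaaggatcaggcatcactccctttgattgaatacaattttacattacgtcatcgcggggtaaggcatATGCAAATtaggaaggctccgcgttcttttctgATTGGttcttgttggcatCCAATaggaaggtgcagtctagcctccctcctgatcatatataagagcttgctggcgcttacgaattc
Both hold an octamer and 2 CCAAT boxes. In Hist1h2bg the octamer begins 59 bases before the start with TATAAA after it. In Hist3h2a it begins 119 bases before the start and the letters TATAAA were not found. Those letters were also not found for Hist1h2bm, which was highest in replicate 2. A link between promoter letters and the libraries was not tested.

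The labelled cell type was checked against markers. All 8 macrophage genes were above 20 TPM in every library, with Lyz2 at 5952, 4033 and 4392 TPM and Csf1r at 287, 222 and 253 TPM. None of the 8 was highest in replicate 2. Summed levels were 1.92 to 3.24 TPM for 6 neutrophil genes, 0.44 to 0.85 for 4 marrow progenitor genes and at most 0.06 for the erythroid, B cell and T cell lists. Ngp reached 1.29 to 2.29 TPM, Car1, Hbb-bs, Hba-a1, Cd3e and Cd8a were at 0 counts, and the progenitor gene Kit had 0.65, 0.59 and 0.29 TPM.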

How the data were processed

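Ribosome-depleted total RNA of the macrophage cytosol was measured in 3 libraries. The deposited tables have the columns of RSEM (gene and transcript) and of kallisto (transcript), per the file headers, on mm10 and GENCODE M21, per the labels. Tool versions are not given in the sources used here. The authors deposited an expected count per gene, estimated and not always whole, and TPM. Each transcript's share of its gene is a percent, per the file headers. TPM divides by an effective length, deposited beside it, of 91.7, 105 and 104 bases for the 312 bases of Hist1h4k, so values of short genes depend on the assumed fragment length.

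Counts were rounded for edgeR 4.0.16 (R 4.3.3): TMM factors (1.04, 0.992 and 0.971 in replicates 1, 2 and 3), edgeR's low-count filter with an intercept-only design, and log2 CPM with a prior count of 2. DESeq2 1.42.0 size factors were an alternative. The calculation was tested on simulated data. With 1 group no p-values were computed.

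Sequence sharing and hairpins came from exact searches of GENCODE M21 transcripts, using each gene's most abundant coding transcript, and motifs from RefSeq promoters. The genes and lists were chosen with earlier results of these data known. Named genes were the 20 highest by TPM, the highest of each class and cluster, the 5 with the widest spread, the 5 with the largest fold between tables, testis-restricted genes and those with a second coding transcript of at least 10%. Other genes are named to give a class or pattern in full, and 1 listed marker is not reported here.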

Additional observations from a re-analysis of the deposited data

Results flagged for a closer look

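Hist3h2bb-ps, a histone pseudogene that the choice of protein-coding genes left out, had 9, 21 and 22 expected counts in replicates 1, 2 and 3, above the 3 counts that a listed 0 allows. Its levels were 0.81, 0.99 and 0.80 TPM. The 2 other pseudogenes of this naming, Hist1h2aj and Hist1h2al, had at most 2.07 counts in any library.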

How the results depend on the processing

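No paired analysis was possible because the libraries form 1 group. Of the 67 genes, 32 reached 5 TPM in all libraries, against 57 at 1 TPM, and 49 reached 1 TPM in the kallisto-format tables. The share of counts was 0.0733% of protein-coding counts and 0.295% of protein-coding TPM. In TPM, class shares were 8.82% for H1, 31.5% for H2A, 19.4% for H2B and 27.7% for H4. H4 held 18.6% of kallisto-format counts, against 17.9%. The median log2(TPM + 1) was 1.94 in the kallisto-format tables, against 2.84 in the gene tables. Leaving out 1 replicate moved the median SD to between 0.17 and 0.55 log2 units. Counts of genes highest in replicate 2, added after seeing the data, were 56 of 61 with DESeq2 factors, with no factors and with kallisto-format counts. They were 58 of 64 without the filter, 17 of 22 where at least 50% of 31-base words were unique, and 54 of 61 on gene-table TPM, where 9.93% of all genes were highest there. Of the 34 named genes, the mean TPM moved by more than its SD in 27 with kallisto-format tables and in 3 with posterior means. Of the 6 genes that did not pass the filter, 3 had 0 expected counts in every library.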
